A study of Mus musculus with 24 samples.

Results

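The genes described are 34 interferon-stimulated genes of the mouse, a list of named members that was matched by symbol to a RefSeq gene table, and all 34 symbols had an entry. They were read among 21887 protein-coding genes on assembled chromosomes. For each gene, the deposited ChIP-seq peaks lying within 5 kb of either annotated end (build mm10) were taken, and the bp that they covered were summed as the gene's covered length. The list was not chosen by a peak value, but it was chosen with earlier results of these data known.

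The cells were leukaemic erythroid cells from bone marrow, TgSpi1 erythroleukaemic cells numbered 763, which carry a Spi1 transgene, overexpress the transcription factor SPI1 (PU.1) and were grown with EPO (erythropoietin). The untreated group received no doxycycline. The treated group received doxycycline for 48 h, which induces a short hairpin RNA against Spi1. The series has 24 samples, and peak lists of 4 groups were used: H3K27ac and H3K4me1, each Dox_Untreated and Dox_Treated. The study's labels speak of biological replicates, but each H3K27ac list stands for replicates 1 and 2 together and each H3K4me1 list for replicate 1. There was thus 1 list per mark and condition, no value below has a replicate error, and no difference between conditions could be tested. No group received doxycycline without the hairpin, so the drug and the lower SPI1 cannot be told apart. The promoter that drives the transgene is not given in the sources used here.

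Interferon-stimulated genes encode antiviral proteins. Interferons bind receptors on the cell surface, receptor-bound kinases act on STAT proteins, and a complex that holds STAT2 and IRF9 binds the interferon-stimulated response element (ISRE) in the promoters of such genes. Many are also transcribed at a low level without added interferon. SPI1 can bind DNA next to IRF4 or IRF8 at a composite ETS-IRF element whose letters resemble the ISRE. H3K27ac is a histone mark of active promoters and enhancers. H3K4me1 lies over enhancers and flanks active starts.

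The H3K27ac lists held 28902 untreated and 23341 treated peaks, covering 41.5 Mb and 41.2 Mb, and the H3K4me1 lists 119362 and 101388 peaks, covering 184.0 Mb and 195.4 Mb. Treated lists therefore had fewer and wider peaks, and treated H3K4me1 covered 1.06 times the untreated length. The lists hold no read counts, so the depth is unknown. As a check of the cell type, 8 of 10 erythroid marker genes had H3K27ac within 5 kb of an end in the untreated list and 10 of 10 in the treated list. Of 8 macrophage and granulocyte markers 2 had it in each list, Cd68 and Csf1r, and Lyz2, Itgam, Adgre1, Mpo, Elane and Ly6g were at 0 bp. Of 8 lymphoid markers 3 had it in each list. The median H3K27ac difference, treated minus untreated, was 1401.5 bp over the erythroid markers and 0 bp over each of the other 2 lists, and of 10 erythroid markers 5 were longer and 1 shorter by at least 1000 bp (against 4.39% and 4.85% of all genes). Most genes of the other 2 lists had no H3K27ac, which sets their medians at 0 bp. Over those with it the medians were -425 bp (2 macrophage and granulocyte markers) and -103 bp (3 lymphoid markers). The median H3K4me1 difference, treated minus untreated, was 1767 bp over the erythroid markers, -1053 bp over the macrophage and granulocyte markers and -628 bp over the lymphoid markers. The part of other cell types in the values below was not tested, and in bulk cells a mark on fewer cells cannot be told apart from less of it per cell.

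Promoter sequence is shown for members with an ISRE core, because the complex with STAT2 and IRF9 binds that element. Members also differ in whether it lies inside an acetylated peak. The core searched was GAAA, any 2 bases and GAAA again, or its reverse complement, in RefSeq promoters of GRCm38.p6 (the assembly of mm10) from 250 bases before the start to 50 after it. Of 29 members with such an entry, 16 held a match (55.2%), against 3.94% of 17492 protein-coding genes. In 12 members a match lay wholly upstream of the start. For these the match nearest to the start is printed with up to 20 bases either side, 5′ to 3′ on the gene's strand, with ISRE core matches in capitals. The first 8 had H3K27ac over the start in at least 1 list.
Gbp2, chr3:142620584-142620633, plus strand: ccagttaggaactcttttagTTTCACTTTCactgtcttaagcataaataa
Gbp3, chr3:142559985-142560034, plus strand: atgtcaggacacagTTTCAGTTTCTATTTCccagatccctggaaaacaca
Ifitm2, chr7:140955978-140956027, minus strand: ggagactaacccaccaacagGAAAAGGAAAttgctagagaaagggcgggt
Stat2, chr10:128270256-128270305, plus strand: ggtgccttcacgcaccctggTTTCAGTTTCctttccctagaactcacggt
Bst2, chr8:71537567-71537616, minus strand: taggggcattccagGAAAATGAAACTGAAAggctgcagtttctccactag
Oas3, chr5:120777705-120777754, minus strand: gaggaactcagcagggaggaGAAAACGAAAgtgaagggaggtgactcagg
Isg15, chr4:156200855-156200904, minus strand: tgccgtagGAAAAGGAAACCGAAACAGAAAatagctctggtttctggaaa
Cxcl10, chr5:92349073-92349122, minus strand: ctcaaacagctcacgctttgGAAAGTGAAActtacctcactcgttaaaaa

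The other 4 members with an upstream match had no H3K27ac over the start in either list, and are shown for contrast. They were added after their values were seen.
Oas1a, chr5:120907526-120907559, minus strand: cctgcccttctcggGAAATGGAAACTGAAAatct
Ifit1, chr19:34640784-34640833, plus strand: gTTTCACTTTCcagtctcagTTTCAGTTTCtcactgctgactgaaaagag
Rsad2, chr12:26456543-26456592, minus strand: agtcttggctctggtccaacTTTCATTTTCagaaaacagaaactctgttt
Ifit3, chr19:34583387-34583436, plus strand: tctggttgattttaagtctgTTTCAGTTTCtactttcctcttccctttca

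All 10 bases of the printed core nearest the start lay inside an H3K27ac peak at 7 of these 12 members in the untreated list and at 8 in the treated list, the added one being Cxcl10. The H3K4me1 lists held the core at 8 of 12 in each condition. At Ifit1 and Rsad2 the core lay inside H3K4me1 and outside H3K27ac in both conditions. At Stat2 and Bst2 it lay inside H3K27ac and outside H3K4me1. At Oas1a and Ifit3 it lay outside the peaks of all 4 lists. Among the 29 members, 11 with an ISRE match and 11 without had H3K27ac over the start in at least 1 list, and 5 with a match and 2 without had none. Another 3 motifs were searched in the same promoters on both strands. The GAS core TTCNNNGAA, an element of interferon-responsive promoters, matched in 9 of 29 members (31.0%) and 8.92% of all genes. The ETS-IRF composite, GGAA, any 2 bases and GAAA, matched in 4 members (13.8%) and 2.98% of all genes, and the SPI1 core GAGGAAG in 5 members (17.2%) and 15.5% of all genes. ISRE matches overlapped a GAS match at Bst2 and Ifitm3 and a composite match at Stat2. At a RefSeq start inside the Adar gene a GAS match overlapped a composite match, and at Trim25 a composite match overlapped an SPI1 match. A match is a description of letters, not a bound site. Dhx58, Zbp1, Oas2, Parp14 and Usp18 had no entry in the promoter table.

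Most interferon-stimulated genes carried acetylated chromatin in these erythroid cells without and with doxycycline. Within 5 kb of an end, 27 of 34 members had H3K27ac in the untreated list (79.4%, against 52.3% of all protein-coding genes) and 26 in the treated list (76.5%, against 51.5%). The same 26 had it in both lists (against 50.4%), and 0 had it in the treated list alone (against 1.15%). Some members were counted through peaks near a neighbouring gene. Without peaks within 1 kb of the end of another gene, 23 members had H3K27ac untreated and 22 treated. That setting was chosen after seeing the data, and its share of all genes was not computed. H3K4me1 was present at 31 members untreated (91.2%, against 69%) and 32 treated (94.1%, against 68%). It was in both lists at 31 (against 66.2%) and in the untreated list alone at 0 (against 2.77%). Both marks were found at 27 members (against 53.4%) and H3K4me1 without H3K27ac at 5 (against 17.4%), which were Oas2, Ifit1, Ifitm1, Rsad2 and Ifi44. H3K27ac without H3K4me1 was found at 0 (against 0.0228%), and neither mark at 2 (against 29.2%), Zbp1 and Ifit3. Zbp1, a sensor of Z-form nucleic acid, and Ifit3, an IFIT effector, thus had 0 bp in all 4 lists.

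H3K27ac was more often shorter than longer in the treated list. It was shorter at 18 members, against 26.1% of all genes, longer at 9, against 25.5%, and equal at 7 (against 48.4%), which all had none (against 46.6%). Of the 27 members with acetylation, the 18 shorter ones made up 66.7%, against 48.8% of all genes with H3K27ac in either list. The median difference over the 34 members was -125 bp, against 0 bp over all genes. By a call of at least 1000 bp, 2 members were longer (5.88%, against 4.39% of all genes) and 3 shorter (8.82%, against 4.85%), shares near the background. Of genes with H3K27ac in either list, 8.21% were longer and 9.07% shorter by that call, beside 7.41% and 11.1% of the 27 members. The 2 longer ones were Xaf1 and Cxcl10 and the 3 shorter ones Ifi35, Trim25 and Tap1. With windows of 2 kb no member was shorter by 1000 bp, and the share of all genes with such windows was not computed.

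H3K4me1 went the other way and was longer at 25 members, against 44.5% of all genes, shorter at 7, against 25.6%, and equal at 2, against 29.8%. Of genes with H3K4me1 in either list, 62.9% were longer and 36.2% shorter, beside 78.1% and 21.9% of the 32 members with it. By at least 1000 bp, 11 members were longer (32.4%, against 18.5% of all genes) and 1 was shorter (2.94%, against 7.53%). Of genes with H3K4me1 these shares were 26.1% and 10.6%, beside 34.4% and 3.12% of the members with it. The median difference was 611 bp over the members and 0 bp over all genes. With treated lengths scaled to the untreated total, 20 members were longer and 12 shorter, and by 1000 bp 8 and 4. The longer ones were 62.5% of members with unequal lengths, against 51.4% of all such genes, and the members' median difference was 240 bp. Under that scaling 12.1% of all genes were longer and 10.9% shorter by 1000 bp.

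**Figure D1:**
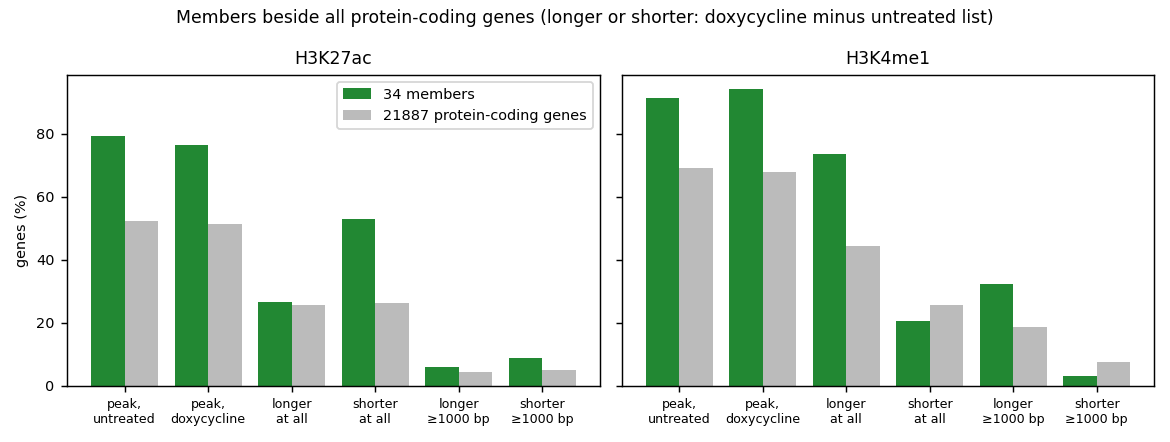
Share of the 34 members (green bars) and of 21887 protein-coding genes (grey bars), in percent, that had a peak within 5 kb of a gene end in each list or a longer or shorter covered length in the doxycycline list, for H3K27ac (left) and H3K4me1 (right). Members stand above all genes in the share with peaks, and the shares with H3K27ac longer or shorter by 1000 bp are near those of all genes.

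**Figure D2:**
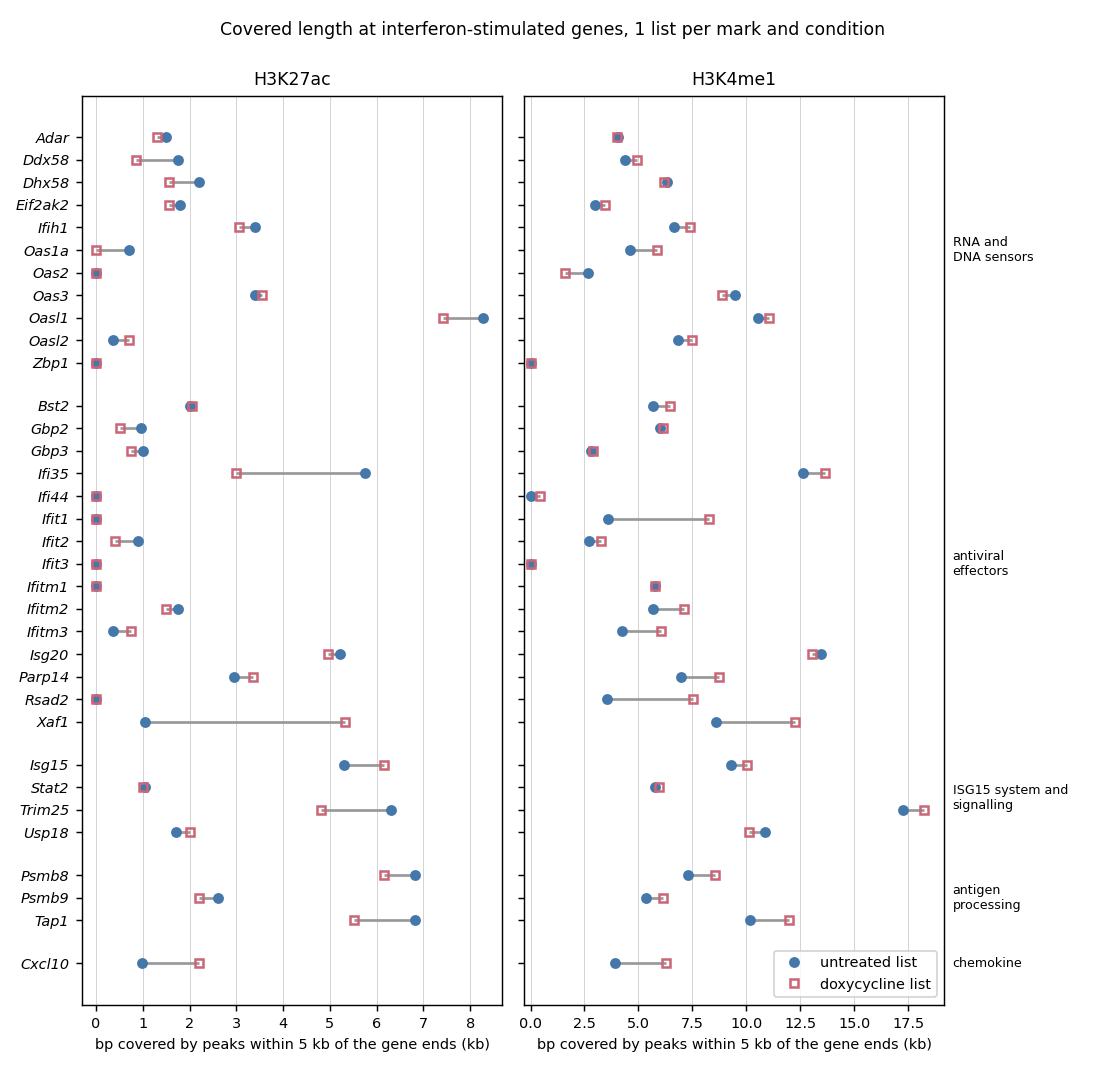
Covered length in kb within 5 kb of the gene ends for each of the 34 members, grouped by role, in the untreated (blue circles) and doxycycline (red squares) list of H3K27ac (left) and H3K4me1 (right), with 1 list per point and no error. Xaf1 and Ifi35 have the widest gaps in H3K27ac, and Ifit1, Rsad2 and Xaf1 in H3K4me1.

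Of 11 members grouped here as RNA and DNA sensors, with the editing enzyme gene Adar among them, 9 had H3K27ac in the untreated list and 8 in the treated list (against 52.3% and 51.5% of all genes). It was shorter at 7 and longer at 2 (against 26.1% and 25.5%), with differences from -903 bp to 350 bp. Of genes with H3K27ac in either list, 48.8% were shorter and 47.7% longer. Ddx58 (chromosome 4, 40203777 to 40239825), which encodes the RNA helicase RIG-I, had 1756 bp untreated and 853 bp treated. Ifih1 (chromosome 2, 62595618 to 62646255), which encodes MDA5, had 3403 bp and 3053 bp in a single peak over its start. Both genes thus differed by less than the call, and their H3K4me1 was longer, at 4386 bp and 4930 bp for Ddx58 and 6663 bp and 7403 bp for Ifih1. Dhx58, which encodes the related helicase LGP2, had 2206 bp and 1553 bp of H3K27ac. Its untreated list had a peak of 803 bp near the end of Zfp385c that the treated list lacked. Eif2ak2, the kinase PKR, had 1803 bp and 1553 bp, and Adar, an RNA-editing adenosine deaminase, 1503 bp and 1303 bp. Adar has another RefSeq start inside the gene, outside these windows, with H3K27ac over it in both lists. Within 1 kb of that start H3K27ac was 1503 bp untreated and 1653 bp treated.

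Among the OAS genes, whose products make 2-5A or resemble those that do, acetylation differed between neighbours. Oas1a (chromosome 5, 120896256 to 120907544) was the only member with H3K27ac in the untreated list alone, with 706 bp and 0 bp, a state that 1.9% of all genes showed. Its 2 untreated peaks were narrow, 453 bp and 253 bp wide, and lay on either side of the start, from -526 to -74 bp and from 224 to 476 bp of it, so that neither covered the ISRE matches printed above. H3K4me1 overlapped both places in both conditions and was 4608 bp untreated and 5852 bp treated. Oas1a has close paralogues, as do the IFIT, IFITM and GBP genes, and no source used here says how reads matching several copies were placed. Oas3, with 3403 bp and 3553 bp, had a broad acetylated start in both conditions. Oas2, its neighbour, had no H3K27ac and was the only member with H3K4me1 shorter by at least 1000 bp, with 2659 bp and 1606 bp. With windows of 20 kb the difference at Oas2 was 900 bp in the other direction. Oasl1 had the longest H3K27ac of all members, 8269 bp and 7419 bp, and Oasl2 next to it had 353 bp and 703 bp. The treated Oasl2 peak reached over its start and the untreated one did not.

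The 15 antiviral effectors had H3K27ac differences from -2759 bp to 4272 bp. H3K27ac was present at 10 in each list (against 52.3% and 51.5% of all genes), shorter at 6 (against 26.1%), longer at 4 (against 25.5%) and absent at 5 (against 46.6%). H3K4me1 was longer at 12 and shorter at 2 (against 44.5% and 25.6%). Of genes with a peak of the mark in either list, 48.8% were shorter and 47.7% longer in H3K27ac. In H3K4me1 62.9% of such genes were longer and 36.2% shorter. Xaf1 (chromosome 11, 72301461 to 72313733), which encodes an XIAP-associated factor that promotes apoptosis, had a covered length of 1053 bp in the untreated and 5325 bp in the treated H3K27ac list. The difference of 4272 bp was the largest of any member within 5 kb of the gene ends, and with windows of 2 kb it was 1182 bp. The start peak was 1053 bp wide untreated and 1803 bp treated, and 2 further peaks were present in the treated list alone. The wider of these spanned 3453 bp inside the gene, from 6720 to 10172 bp downstream of the start, on chromosome 11 from 72308349 to 72311801. It lay wholly within an untreated H3K4me1 peak of 3853 bp, so the region carried H3K4me1 in both conditions and H3K27ac in the treated list. H3K4me1 at Xaf1 was 8575 bp and 12267 bp. There, 2 treated H3K4me1 peaks lie within 1 kb of an end of Fbxo39, and with peaks near other genes left out the H3K4me1 difference was -2362 bp.

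Ifi35 (chromosome 11, 101448412 to 101458701), an interferon-induced leucine zipper protein, had H3K27ac over 5755 bp in the untreated and 2996 bp in the treated list, with 6 and 3 peaks. The start itself was not where it was shorter, since the start peak was 1053 bp wide untreated and 1403 bp treated. Peaks of 403 bp, 3 bp and 1553 bp between 1637 and 4339 bp downstream of the start were found in the untreated list alone. A peak at the neighbour Vat1 that reaches into the window was 4753 bp wide untreated and 3003 bp treated. Within 2 kb of the gene ends the difference was -14 bp, and with peaks near other genes left out it was -1609 bp. H3K4me1 at Ifi35 was 12630 bp and 13661 bp, a difference that reversed under 2 of the alternatives.

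**Figure D3:**
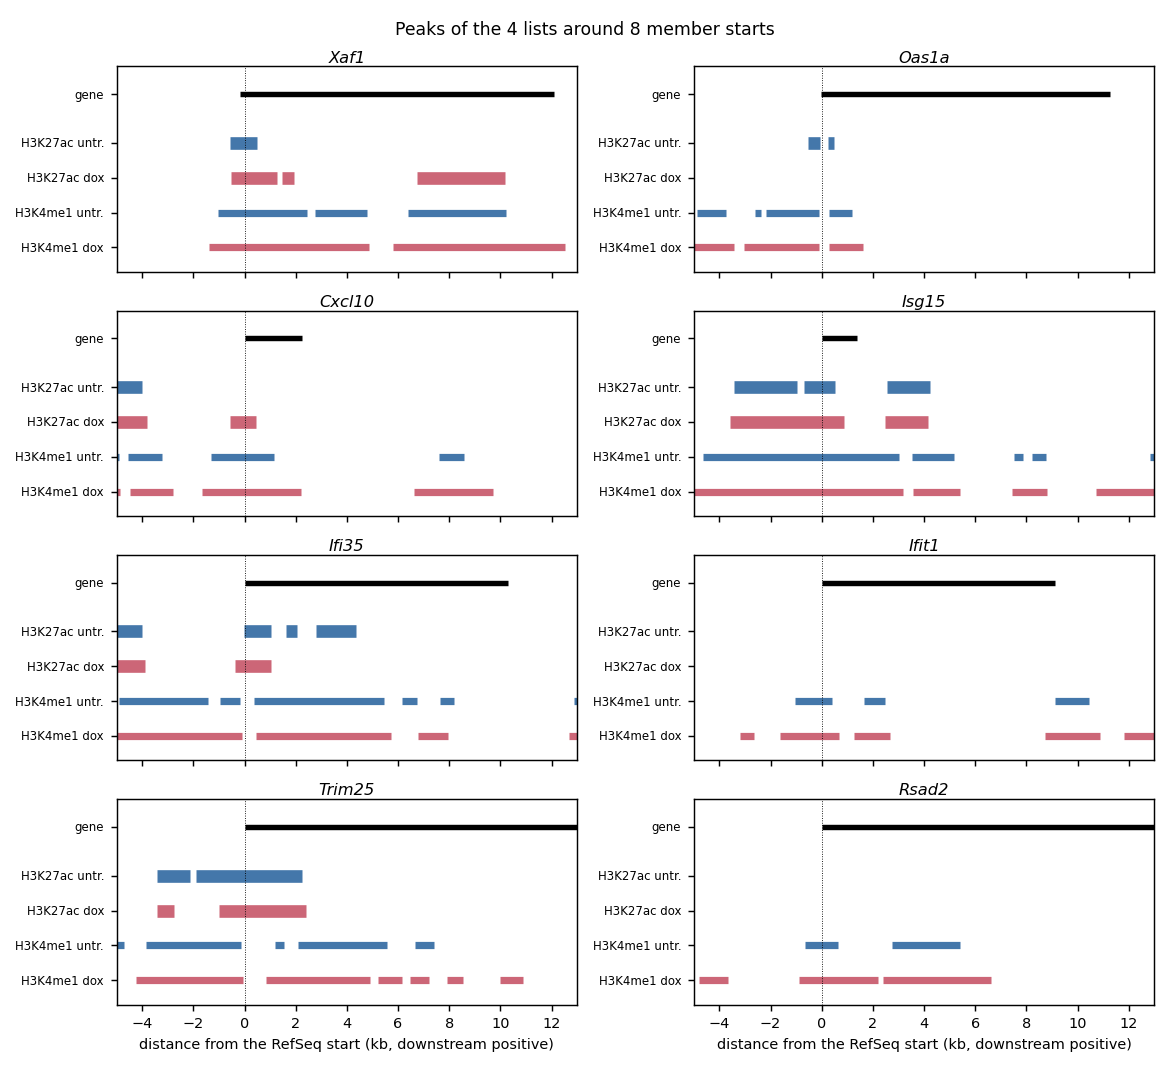
Peaks of the 4 lists (bars, blue untreated, red doxycycline) and the annotated gene (black bar) around the starts of 8 members, with the distance from the RefSeq start in kb on the x axis and downstream positive. The Trim25 and Rsad2 genes run past the right edge. At Xaf1 an H3K27ac peak inside the gene is in the doxycycline list alone, at Cxcl10 a start peak is in that list alone, at Oas1a both H3K27ac peaks are in the untreated list alone, and at Ifit1 and Rsad2 there is H3K4me1 without H3K27ac.

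Ifit1 and Rsad2 had the largest H3K4me1 differences of all 34 members and no H3K27ac within 5 kb of their ends in either list. Ifit1 (chromosome 19, 34640889 to 34650009), whose product binds viral RNA, had 3609 bp of H3K4me1 in 3 peaks untreated and 8276 bp in 6 peaks treated. Its start peak ran from -1040 to 412 bp of the start untreated, and from -1640 to 662 bp treated. Each of the 3 untreated peaks lay inside a wider treated one, and 2 of the other treated peaks overlapped no untreated peak. The remaining treated peak, 3853 bp wide, ran past the 5 kb window. Beyond the window it overlapped 1506 bp of treated H3K27ac and 0 bp of untreated H3K27ac. Rsad2 (chromosome 12, 26442743 to 26456452), which encodes viperin, had 3553 bp in 2 peaks untreated and 7509 bp in 4 peaks treated. Its start peak was 1303 bp wide untreated and 3103 bp treated. Both untreated peaks lay inside wider treated ones, and the other 2 treated peaks overlapped no untreated peak. With windows of 2 kb the differences were 2050 bp at Ifit1 and 1597 bp at Rsad2. Ifit2 had a small acetylated peak at its start, 903 bp untreated and 403 bp treated, and 2706 bp and 3256 bp of H3K4me1. Ifi44, an interferon-induced cytoplasmic protein, had a single H3K4me1 peak of 453 bp over its start in the treated list and 0 bp in the other 3 lists. In that state, H3K4me1 in the treated list alone, were 1.78% of all genes.

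The IFITM genes, which encode membrane proteins that block viral entry, sat close together on chromosome 7. Ifitm1 had 5759 bp and 5756 bp of H3K4me1 and no H3K27ac, while Ifitm2 had an acetylated start, with 1753 bp and 1503 bp, and 5662 bp and 7109 bp of H3K4me1. The windows of these 2 genes overlap. With windows of 20 kb the Ifitm2 H3K4me1 difference was -3162 bp. Ifitm3 had 353 bp and 753 bp of H3K27ac, from different peaks in the 2 lists with none over its start. Its H3K4me1 was 4256 bp and 6052 bp. Bst2, the tetherin gene, differed little in H3K27ac, at 2003 bp and 2053 bp. Isg20, an RNA exonuclease, had 5206 bp and 4956 bp, and Parp14, an ADP-ribosyltransferase, 2956 bp and 3356 bp, its H3K4me1 covering 6962 bp and 8756 bp. The GTPase genes Gbp2 and Gbp3 had narrow start peaks in both lists, at 953 bp and 503 bp for Gbp2 and 1003 bp and 753 bp for Gbp3.

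The ISG15 system attaches the ubiquitin-like protein ISG15 to other proteins. Isg15 (chromosome 4, 156199424 to 156200818) had H3K27ac over 5309 bp in the untreated and 6156 bp in the treated list. In the untreated list a start peak of 1203 bp and an upstream peak of 2453 bp stood apart, and in the treated list a single peak of 4453 bp spanned both. The upstream part also lies at the end of Perm1. Trim25 (chromosome 11, 88999403 to 89020294), a ubiquitin ligase that acts on RIG-I, had 6309 bp and 4809 bp. Its start peak ran from -1904 to 2248 bp of the start untreated and from -1004 to 2398 bp treated. Trim25 also had the longest H3K4me1 of all members, 17261 bp and 18257 bp, with a peak of 16253 bp untreated and 16203 bp treated at its other end. Usp18, the protease that removes ISG15, had 1714 bp and 2006 bp of H3K27ac. Stat2, a subunit of the ISRE-binding complex, had a start peak of 1053 bp and 1003 bp.

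Psmb8 and Psmb9, immunoproteasome subunits, and Tap1, a peptide transporter, adjoin on chromosome 17 and act in making and moving peptides for MHC class I. Their windows overlap, so they share peaks and are not independent of each other. H3K27ac was shorter in the treated list at all 3 (against 26.1% of all genes and 48.8% of those with H3K27ac in either list). It covered 6809 bp and 6156 bp at Psmb8, 2606 bp and 2203 bp at Psmb9 and 6812 bp and 5506 bp at Tap1. H3K4me1 was longer at all 3 (against 44.5% of all genes and 62.9% of those with H3K4me1 in either list). It covered 7318 bp and 8565 bp, 5359 bp and 6156 bp, and 10168 bp and 11962 bp in the same order. Over their joined windows H3K27ac was 9415 bp and 8359 bp and H3K4me1 12677 bp and 14721 bp. The H3K27ac peak over the starts of Psmb9 and Tap1, which face away from each other, had the same edges in both lists (chromosome 17, 34186449 to 34188651). The shorter length came from small peaks inside Tap1, of 403 bp and 203 bp in the untreated list alone, and from the edges of the Psmb8 start peak, 4003 bp wide untreated and 3303 bp treated. With equal peak numbers the Tap1 difference was -700 bp, under the call.

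Cxcl10 (chromosome 5, 92346638 to 92348889), a chemokine that attracts T cells, was, with Oasl2, a member whose start lay inside H3K27ac in the treated list alone. A treated peak of 1003 bp ran from -562 to 440 bp of the start, with no untreated peak within 1 kb of the start. This peak covered the ISRE match printed above, which lies 213 to 204 bases before the start. A peak farther upstream, in Art3, was present in both lists, 1353 bp wide untreated and 1553 bp treated. Covered lengths were 991 bp and 2194 bp in H3K27ac and 3897 bp and 6261 bp in H3K4me1. The start carried H3K4me1 in both conditions. With the wider 50% of each list the H3K27ac difference was 200 bp, because the start peak is not among the wider ones.

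H3K27ac lay over a RefSeq start of 20 members untreated (69%, against 41.9% of 17492 genes) and 22 treated (75.9%, against 44%), and at 7 in neither list (24.1%, against 54.8%). It did so at 20 of 29 members in both lists (69%, against 40.7% of 17492 genes). In 2 members, Cxcl10 and Oasl2, it did so in the treated list alone (6.9%, against 3.25%), and in 0 in the untreated list alone (0%, against 1.23%). The 2 cases differ. Cxcl10 had no untreated peak within 1 kb of its start. At Oasl2 the start is at 114896934, and an untreated peak began at 114896999 and overlapped the treated one by 353 bp. H3K4me1 lay over a start at 16 untreated (against 20.5%), at 19 treated (against 23.7%), at 9 in neither list (against 73.9%), at 15 in both lists (51.7%, against 18%), at 4 in the treated list alone (13.8%, against 5.65%), namely Ddx58, Ifi44, Oasl1 and Psmb8, and at Ifitm3 in the untreated list alone (3.45%, against 2.5%). At the position of the first listed start, 55.2% of members were inside H3K4me1 untreated and 65.5% treated, against 18.2% and 21.3% of all genes. At 1 kb downstream these shares were 75.9% and 89.7% of members and 41.2% and 44.5% of all genes.

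**Figure D4:**
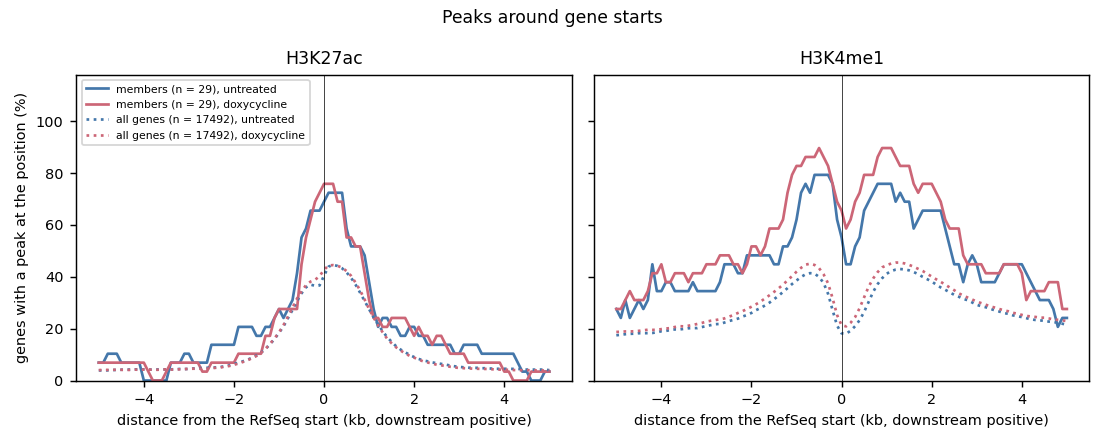
Percent of genes with a peak at each position from 5 kb upstream to 5 kb downstream of the RefSeq start, for 29 members (solid) and 17492 genes (dotted) in the untreated (blue) and doxycycline (red) lists of H3K27ac (left) and H3K4me1 (right), in steps of 100 bp. Members lie above all genes near the start in both marks. H3K27ac is highest at or just downstream of the start, and H3K4me1 dips near the start with shoulders either side.

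Counted once each, 47 untreated and 39 treated H3K27ac peaks lay in the members' windows, and 12 and 5 of them had no overlap with the other condition (25.5% and 12.8%, against 27.4% and 17.1% of all peaks). The 12 untreated-only peaks were narrow, with a median width of 403 bp, and 0 lay over a member's start. Every one of the 12 overlapped treated H3K4me1, as did 96.4% of all untreated-only H3K27ac peaks. The 5 treated-only peaks lay at Xaf1 (2 peaks), Cxcl10, Trim25 and Ifitm3, and all 5 overlapped untreated H3K4me1, against 94.4% of all treated-only peaks. Of H3K4me1 peaks in the members' windows, 8.18% of 110 untreated and 11.1% of 99 treated ones were in a single condition, against 26.7% and 20.8% of all peaks. Member peaks were wider than those of the whole list, with medians of 1378 bp and 903 bp in untreated H3K4me1, and a wider peak overlaps another list more readily. The shares of all peaks also count peaks far from gene ends. Shares for peaks near the ends of all genes were not computed.

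The receptors and signalling genes upstream of the members were read in the same way. Of 24 such genes, 20 had H3K27ac in each list (against 52.3% and 51.5% of all genes). It was longer at 7 and shorter at 13 (against 25.5% and 26.1%), with differences from -1150 bp to 526 bp, and by at least 1000 bp it was longer at 0 and shorter at 1, Tbk1, a kinase that phosphorylates IRF3, with 3253 bp and 2103 bp. H3K4me1 was longer by at least 1000 bp at 9 of 24 (37.5%, against 18.5% of all genes) and shorter at 0 (against 7.53%). All 24 had H3K4me1 in the untreated list and 23 in the treated list (against 69% and 68% of all genes). The exception was Ikbke, with 403 bp and 0 bp, a state that 2.77% of all genes showed. Of genes with H3K4me1 in either list 26.1% were longer and 10.6% shorter by 1000 bp. Of genes with H3K27ac in either list, 47.7% were longer at all and 48.8% shorter. The median differences were -75 bp in H3K27ac and 550 bp in H3K4me1, beside -125 bp and 611 bp for the members, all without scaling. Irf9, the DNA-binding subunit of the ISRE-binding complex, had H3K27ac over 4838 bp and 5088 bp. H3K4me1 at Irf9 covered 8497 bp untreated and 11838 bp treated. Irf9 was named after its values were seen.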

How the data were processed

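Peak lists from ChIP-seq of H3K27ac and H3K4me1, each without and with doxycycline, were used. The other samples were not analysed here. Per the submitters' processing notes, bcl2fastq 2.17.1.14, BWA and mm10 were used. No source used here names a peak caller or threshold, or says how 2 H3K27ac replicates became 1 list. The lists as deposited hold positions and peak widths, and those of H3K4me1 also a score from the authors on an unstated scale, which was used in no result. Peak starts fall on a grid of 50 bp. Both ends of a peak were counted as covered. Depth is unknown, and deeper reads can lengthen peaks or add to them.

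Gene ends and starts came from RefSeq (GRCm38.p6). Covered length was computed with Python 3.11.15, numpy 2.4.6 and pandas 2.3.3, equalled bedtools 2.31.1 at all 21887 genes, and was checked on simulated peaks. Figures used matplotlib 3.10.9. A gene was called longer or shorter at a difference of at least 1000 bp, and peaks were shared at an overlap of 1 bp. The members, gene lists and rules were chosen with earlier results of these data known. By rule, members with a difference of at least 1000 bp, a mark in 1 condition alone or no peak were named with their values. Values of the remaining members were added after they were seen. Alternatives changed the window, the call, the peak width, merging, scaling and neighbouring genes' peaks.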

Additional observations from a re-analysis of the deposited data

How the results depend on the processing

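Of 84 recomputed counts, 63 stayed within 1.5 times the main count, among them each count of members with a peak under each alternative run. Apart from the scaling, shares of all genes under these alternatives were not computed. The counts below therefore have no background beside them and cannot show whether members differ from all genes. Members with H3K27ac longer by the call were 6 with windows of 20 kb, 1 with the wider 50% of each list and 1 at a call of 2000 bp. Members with it shorter were 0 with windows of 2 kb, 5 with windows of 20 kb, 5 with the wider 50%, 5 with peaks within 1 kb merged, 9 at a call of 500 bp and 1 at 2000 bp. Members with H3K4me1 longer were 7 with windows of 2 kb, 20 at a call of 500 bp and 4 at 2000 bp. Members with H3K4me1 shorter were 6 with windows of 20 kb, 3 over gene bodies with 5 kb either side, 4 with scaled lengths, 2 with the wider 50%, 3 with merged peaks, 3 without peaks near other genes (a setting chosen after seeing the data), 3 at 500 bp, 0 at 2000 bp and 0 with overlapping windows joined to loci. Of 153 recomputed differences of single members, 5 reversed: Oas2 H3K4me1 at 900 bp and Ifitm2 at -3162 bp with windows of 20 kb, Ifi35 H3K4me1 at -1010 bp with merged peaks, and, without peaks near other genes, Xaf1 H3K4me1 at -2362 bp and Ifi35 at -556 bp. Apart from the changes of window, call and loci, which count other stretches by construction, the cause was not tested. No paired analysis was possible because each mark and condition had 1 list. Unknown depth limits every width and every peak found in 1 list alone.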
